A study of Mus musculus with 12 samples.

Results

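The 10 genes described here encode integrin chains, the ICAM ligands of integrins and CD44, which hold a T cell to a B cell, to vessel wall or to matrix. They were chosen by name as molecules that stabilize or limit contact between T and B cells, out of 24561 genes in the count table, and comprise *Itgal*, *Itgb2*, *Itga4*, *Itgb1*, *Itgb7*, *Itgav*, *Itgb3*, *Icam1*, *Icam2* and *Cd44*. All 10 passed the filter on low counts. Messenger RNA was sequenced from C57BL/6 OT-II T cells, whose transgenic receptor recognizes an ovalbumin peptide, after transfer into CD45.1 *Sap*-/- recipients immunized with NP-OVA and LPS in alum. CXCR5hiPD-1hi Tfh cells were sorted from the draining lymph nodes on day 3. The transferred cells carried *Cd4-cre* alone (labelled wild-type here) or *Cd4-cre* with *Bcl6* fl/+ (labelled BCL6-insufficient), with 3 recipient mice per group and 2 technical repeats of about 200 cells per mouse. Cre under *Cd4* control was present in both groups, so the groups differ in the floxed allele. *Cd4-cre* acts in the T lineage from the thymus onward, and deletion of the allele in these cells was not tested here. Whether the recipients of a group shared a donor is not given in the sources used here, and p-values measure only the spread between these mice.

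An integrin is a pair of chains, 1 alpha and 1 beta, and only the assembled pair reaches the cell surface. On resting T cells it is mostly bent and inactive, and signals from the antigen receptor or a chemokine receptor open it from inside through the small GTPase RAP1, talin and kindlin, which act on the beta tail. LFA-1, the pair of *Itgal* and *Itgb2* products, binds ICAM-1 and ICAM-2 and forms the outer ring of the immunological synapse; Tfh cells use it, with SAP-dependent receptors, in their contacts with B cells. The study asked how BCL6 governs such contacts, and the comparison below asks which adhesion transcripts differed between the 2 genotypes.

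The libraries held 3343375 to 8315722 counts and the summed mice 10098419 to 14002507. Of 20 Tfh markers 19 were tested and only *Ascl2* was too low, and *Cd4*, *Cxcr5*, *Pdcd1* and *Icos* were all abundant, with mean normalized CPM (counts scaled to library size, after TMM normalization) between 164.1 and 514.1 in each group. Under the BCL6-insufficient label 5 of the 19 rose and 5 fell, beside 9.17% of all genes tested that were called higher and 8.82% lower, among them *Cd4* (log2 fold change -0.34), *Cxcr5* (-0.40), *Pdcd1* (-0.42) and *Icos* (0.64). The *Bcl6* count went against the labels. It was 150.0, 146.2 and 150.0 normalized CPM in the libraries labelled BCL6-insufficient and 54.8, 75.6 and 56.9 in those labelled wild-type. The log2 fold change was 1.25 ± 0.12 (SE, adjusted p = 6.3e-07, edgeR, n = 3 mice per group). The count covers all exons, and which exons the allele deletes is not given in the sources used here. Groups are therefore named by their labels, and every direction below rests on them.

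Of the 10 adhesion genes, 2 were lower in the mice labelled BCL6-insufficient and 0 were higher at an adjusted p under 0.05 in edgeR's quasi-likelihood test. *Itgb2*, the beta chain of LFA-1, and *Cd44*, the hyaluronan receptor, were the genes that fell. The 2 genes make up 20.0% of the 10, beside 18.0% of the 12719 genes tested that were called in either direction, 8.82% called lower and 9.17% called higher. A share so close to the background is not a result about the genes as a group, and the values are given gene by gene. At an unadjusted p under 0.05 there were 2 lower and 1 higher, beside 15.2% lower, 15.7% higher and 31.0% in either direction among all genes tested. DESeq2 also called 2 lower and 0 higher. It called 10.8% of the 22420 genes with any count. Those include genes below edgeR's filter, so that share is not comparable with the 18.0%. The log2 fold change was above 0 for 5 genes and below 0 for 5, with a median of 0.0363 beside 0.011 over all genes tested. Mice of the groups did not overlap for 2 of the 10 genes, beside 34.4% of all genes tested.

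**Figure D1:**
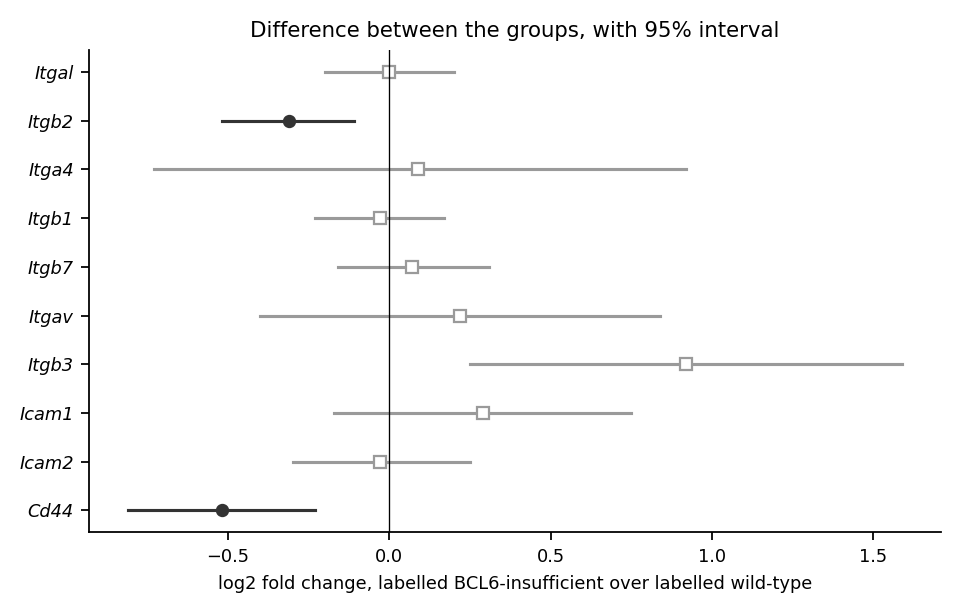
Log2 fold change of each adhesion gene, mice labelled BCL6-insufficient over mice labelled wild-type (x axis), with its 95% interval from edgeR. Filled circles mark *Itgb2* (-0.31) and *Cd44* (-0.52), which passed an adjusted p of 0.05, and open squares the other 8, of which *Itgb3* (0.92) alone had an interval that left out 0.

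Per kilobase of exon, the scale on which levels of different genes are compared here, *Itgb7* was the most abundant, with a mean of 117.2 normalized CPM per kb over the 6 mice. *Itgb2* at 80.7, *Itgal* at 75.5 and *Itgb1* at 75.2 followed, and the ranges over mice overlapped between *Itgb2* and *Itgal* and between *Itgal* and *Itgb1*. *Icam2* stood at 50.4. A second tier held *Cd44* at 13.1 and *Icam1* at 7.88 normalized CPM per kb, whose ranges overlapped. *Itgb3* at 2.18, *Itgav* at 1.22 and *Itga4* at 0.54 were the lowest, and *Itgb3* and *Itgav* overlapped. The range of *Itgb3*, 0.597 to 3.45, also reached into that of *Itga4*, 0.272 to 0.689. The genes thus spanned levels from 0.54 to 117.2 normalized CPM per kb, and the low 3 were counted with far less precision, as their intervals show.

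**Figure D2:**
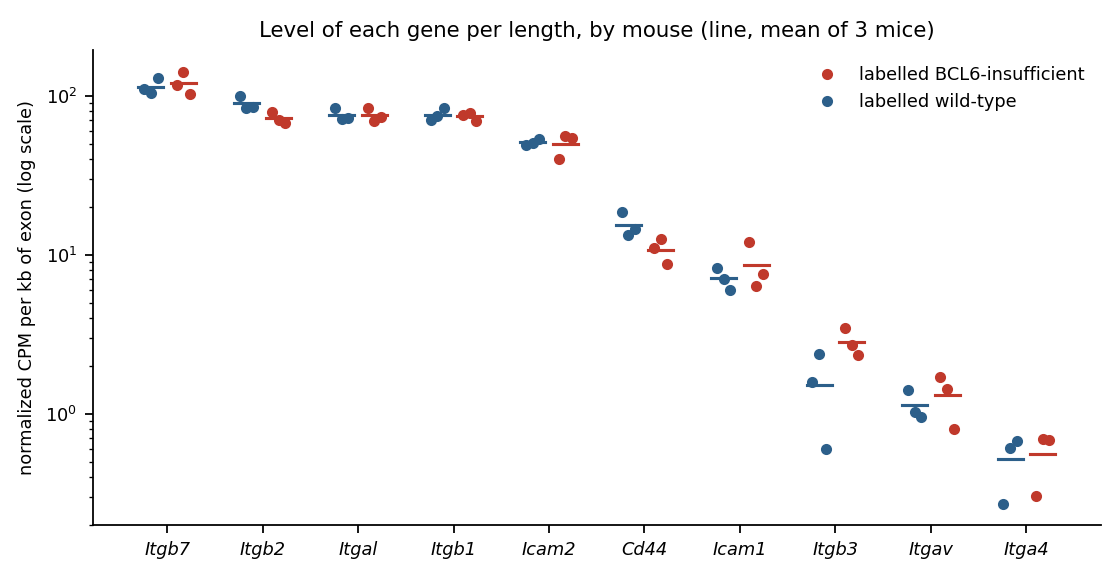
Normalized CPM per kb of exon (y axis, log scale) of the 10 adhesion genes in each mouse, ordered by mean level, with lines at group means. *Itgb7*, *Itgb2*, *Itgal* and *Itgb1* lie between 67.2 and 141.5 in every mouse, whereas *Itga4* lies between 0.272 and 0.689.

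Of the LFA-1 chains, *Itgb2* was called and *Itgal* was not. *Itgb2* (GRCm38, chr10:77530252-77565708, plus strand) encodes the beta-2 chain that all leukocyte integrins of the beta-2 family share. It stood at 234.3, 207.5 and 199.5 normalized CPM in the mice labelled BCL6-insufficient and at 295.3, 249.3 and 252.9 in those labelled wild-type. Every mouse of the former group was below every mouse of the latter. The means were 213.8 ± 18.2 and 265.8 ± 25.6 (SD, n = 3 each), a log2 fold change of -0.31 ± 0.10 (SE, 95% interval -0.52 to -0.11), or 0.805 of the wild-type level, with an adjusted p of 0.0326 in edgeR. Single libraries did not overlap either, since those labelled BCL6-insufficient lay between 196.3 and 234.9 normalized CPM and those labelled wild-type between 237.9 and 296.2. Technical repeats of a mouse differed by at most 1.11-fold. In edgeR the call was nonetheless lost in repeat 1 alone (-0.29, adjusted p = 0.202), in repeat 2 alone (-0.34, adjusted p = 0.0625) and with upper-quartile scaling (-0.28, adjusted p = 0.0571), and *Itgb2* was called in 9 of 20 alternatives. It was also lost without BCL6-insufficient replicate 2 (-0.29), without BCL6-insufficient replicate 3 (-0.27) or without wild-type replicate 1 (-0.24), and the difference was -0.20 (adjusted p = 0.162, edgeR) once trends with GC content and length were removed.

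*Itgal* (chr7:127296260-127335138, plus strand) encodes the alpha-L chain, which carries the domain that grips ICAMs. Its values were 533.0, 439.8 and 470.9 normalized CPM in the mice labelled BCL6-insufficient and 532.2, 454.2 and 459.6 in those labelled wild-type. The groups overlapped throughout, and the highest mouse of each was replicate 1. The ratio of the groups was 0.999, with a 95% interval of 0.87 to 1.15 (adjusted p = 0.993, edgeR). With 1653 to 4246 counts per library, a change of the size seen in *Itgb2*, 0.805, lay outside that interval.

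The *Itgal* to *Itgb2* ratio of normalized CPM, taken without regard to length and used only to compare mice, was 2.28, 2.12 and 2.36 in the mice labelled BCL6-insufficient and 1.80, 1.82 and 1.82 in those labelled wild-type. Each mouse of the first group exceeded each of the second, by a 1.24-fold difference of geometric means. In an exact two-sided permutation test over mice p was 0.1, the smallest that 3 mice against 3 allow, and 0.5 after adjustment over the 5 ratios examined. The ratio is taken within a mouse, so the scaling between libraries does not enter it, but trends with length or GC content can. With those trends removed the log2 fold changes were -0.01 for *Itgal* and -0.20 for *Itgb2*, and the ratio itself was not tested on that scale. It also stood apart in each technical repeat alone, at a log2 difference of 0.24 in repeat 1 and 0.38 in repeat 2.

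**Figure D3:**
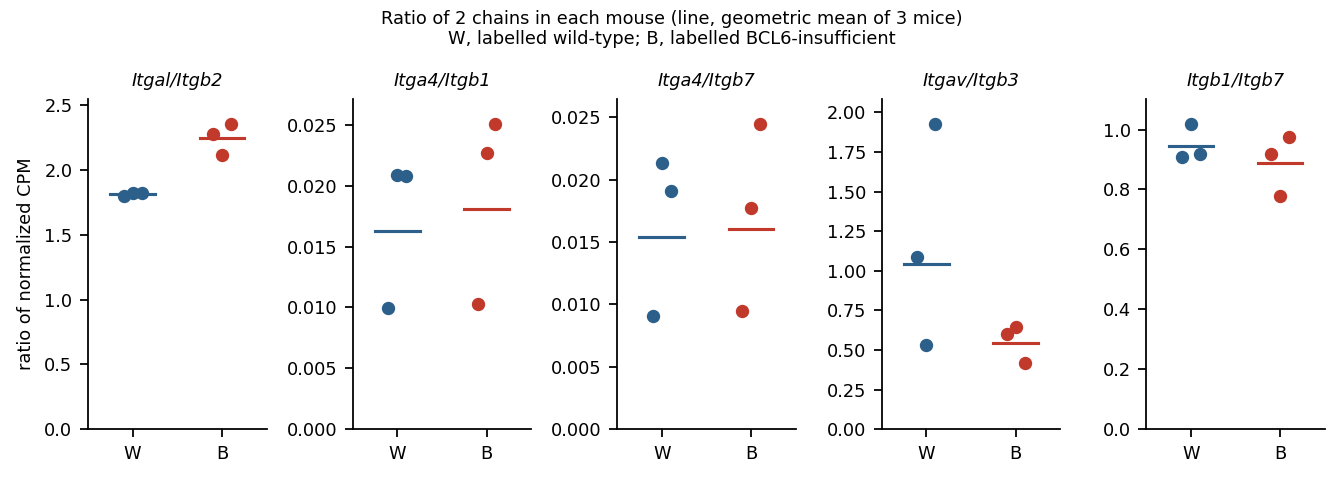
Ratio of normalized CPM of 2 chains in each mouse (y axis) for mice labelled wild-type (W) and BCL6-insufficient (B), with lines at geometric means. Only for *Itgal*/*Itgb2* do the groups not overlap (1.80 to 1.82 against 2.12 to 2.36), whereas *Itgav*/*Itgb3* ranges from 0.417 to 1.93 and overlaps.

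The beta-1 and beta-7 chains, which pair with alpha-4 to bind VCAM-1 and fibronectin or the mucosal addressin MAdCAM-1, showed no difference past the threshold. *Itgb1* (chr8:128685654-128733200, plus strand) was at 289.1, 296.0 and 266.2 normalized CPM in the mice labelled BCL6-insufficient and 266.8, 285.1 and 317.5 in those labelled wild-type. The groups overlapped, and the fold interval of 0.854 to 1.12 (adjusted p = 0.866, edgeR) left room for only small changes. *Itgb7* (chr15:102215995-102231944, minus strand) was at 314.6, 379.8 and 273.3 against 293.6, 279.6 and 345.6 normalized CPM. The highest and lowest mouse of all 6 both carried the BCL6-insufficient label, and the fold interval was 0.897 to 1.24 (adjusted p = 0.704, edgeR). The *Itgb1* to *Itgb7* ratio overlapped between groups (exact permutation p = 0.6).

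*Itga4* (chr2:79255426-79333123, plus strand), the alpha-4 chain of VLA-4 and of the gut-homing pair alpha-4 beta-7, was scarce. It had 7 to 57 counts per library and stood at 2.98, 6.73 and 6.68 normalized CPM in the mice labelled BCL6-insufficient and 2.66, 5.96 and 6.61 in those labelled wild-type. Replicate 1 was the lowest mouse of either group, and the groups covered the same range. The fold interval ran from 0.603 to 1.89 (adjusted p = 0.904, edgeR), so a change of moderate size was not detectable at this depth. The technical repeats of a mouse differed by up to 3.07-fold. Of its exon bases 1.3% are shared with *Cerkl* on the other strand.

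The beta-1 and beta-7 chains were far more abundant per length than the alpha chains that could pair with them. *Itgb7* exceeded the summed level of its alpha partners *Itga4* and *Itgae* between 106.4 and 279.7 times in each mouse on the normalized CPM per kb scale. *Itgb1* exceeded the sum of 12 alpha chains, *Itgav* included, between 9.48 and 16.2 times. *Itgb2*, by contrast, stood at 0.91 to 1.19 times the sum of *Itgal*, *Itgam* and *Itgad*. A further beta-2 partner, *Itgax*, was not in the table and is left out of that sum. All these ratios are of transcript levels over merged exons, and surface protein was not measured. The ratios of *Itga4* to *Itgb1* and to *Itgb7* overlapped between groups (exact permutation p = 0.5 and 0.9).

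Among 19 further integrin chains 17 were in the table and 2 had enough counts to be tested, of which 1 rose in mice with the BCL6-insufficient label and 0 fell. This was *Itga6*, the alpha-6 chain that joins beta-1 in a laminin receptor. Its values were 14.0, 21.6 and 23.6 normalized CPM against 12.9, 13.9 and 9.91, so the lowest mouse of the first group was just above the highest of the second. The log2 fold change was 0.69 ± 0.23 (SE, adjusted p = 0.0383, edgeR). The call was lost in technical repeat 1 alone (0.36, adjusted p = 0.568), in limma voom on 12 libraries (0.69, adjusted p = 0.0514), in the 3 TPM fits (adjusted p = 0.251 to 0.512) and when any mouse but BCL6-insufficient replicate 1 was left out (0.54 to 0.78). It was the most abundant alpha partner of *Itgb1*, at 3.67 normalized CPM per kb. The other 15 chains were not tested, and *Itga1* had no count in any library. With 1 gene called of 2, no share can be read against the background.

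*Itgav* and *Itgb3* encode the alpha-V and beta-3 chains of the vitronectin receptor. *Itgb3* (chr11:104608000-104670476, plus strand) stood at 19.9, 15.7 and 13.6 normalized CPM in the mice labelled BCL6-insufficient and 9.16, 13.7 and 3.45 in those labelled wild-type. Wild-type replicate 2 lay just above BCL6-insufficient replicate 3, so the groups overlapped. The means were 16.4 ± 3.24 and 8.77 ± 5.13 (SD, n = 3 each). The log2 fold change of 0.92 ± 0.32 (SE, 95% interval 0.25 to 1.59) had an adjusted p of 0.0511 in edgeR and was not called.

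Where *Itgb3* fell beside the threshold turned on single mice and on the processing. With the fold almost unchanged it passed under 2 other filters on low counts (0.92, adjusted p = 0.0344, and 0.90, adjusted p = 0.00583, edgeR), and it was called in 7 of 14 alternatives that kept every mouse. The technical repeats of wild-type replicate 2 differed by 2.43-fold, the largest gap among the 6 mice, and without that mouse the log2 fold change was 1.39 (adjusted p = 0.00901, edgeR). Without wild-type replicate 3, the lowest mouse, it was 0.52 (adjusted p = 0.236), so these 2 mice labelled wild-type moved it by more than 1.5 times in opposite directions. In repeat 1 alone it was 1.41 and in repeat 2 alone 0.57. Beta-3 is abundant in platelets with *Itga2b*. Of 10 platelet markers 3 were in the table, with a summed level of at most 0.80 normalized CPM in any mouse, and *Itga2b* had at most 9 counts in a library and *Clec1b* none. The other 7, *Pf4* and *Ppbp* among them, were not in the table and could not be looked at. The part of platelets in the *Itgb3* values was not tested.

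*Itgav* (chr2:83724397-83806916, plus strand) stood at 11.9, 10.1 and 5.65 normalized CPM against 9.98, 7.29 and 6.68. BCL6-insufficient replicate 3 was the lowest mouse of all and replicate 1 the highest, so the groups overlapped widely. The fold interval was 0.76 to 1.79 (adjusted p = 0.667, edgeR), and the repeats of a mouse differed by up to 3.26-fold. The *Itgav* to *Itgb3* ratio was 0.599, 0.644 and 0.417 against 1.09, 0.532 and 1.93, with 1 mouse of the wild-type label inside the range of the other group (exact permutation p = 0.3).

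**Figure D4:**
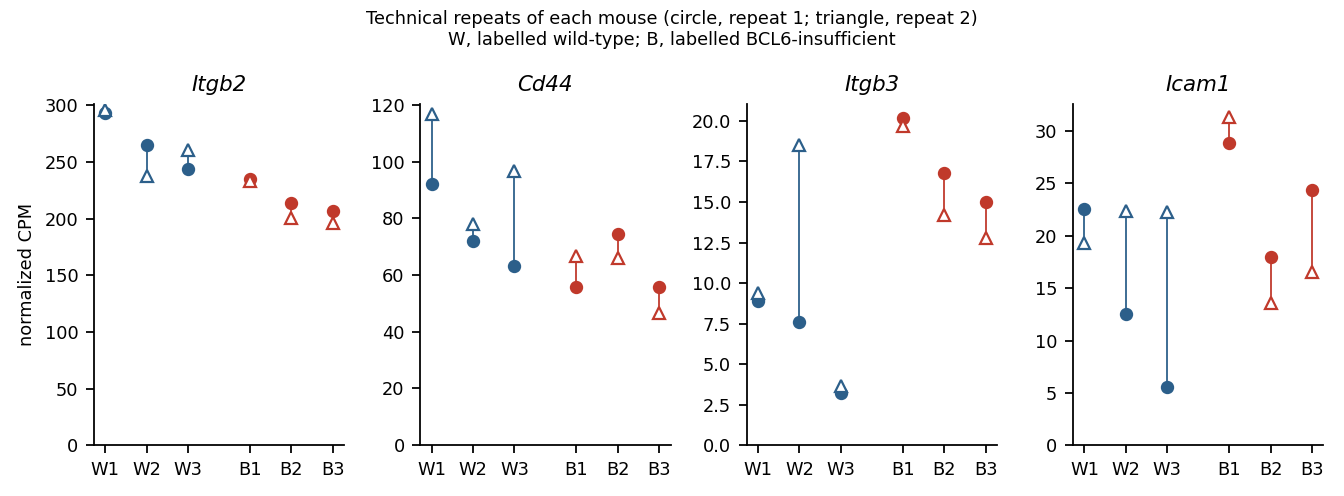
Normalized CPM (y axis) of *Itgb2*, *Cd44*, *Itgb3* and *Icam1* in both technical repeats of each mouse, joined by a line, for mice labelled wild-type (W1 to W3) and BCL6-insufficient (B1 to B3). Repeats lie within 1.11-fold for *Itgb2* and 1.53-fold for *Cd44*, but differ by up to 2.43-fold for *Itgb3* and 4.04-fold for *Icam1*, both gaps in wild-type mice.

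The ICAM ligands, which T cells themselves carry and which engage LFA-1 on a neighbouring cell, did not pass the test. *Icam2* (chr11:106377656-106388075, minus strand) encodes the constitutive ligand and stood at 51.3, 71.3 and 69.6 normalized CPM in the mice labelled BCL6-insufficient and at 63.0, 64.5 and 68.0 in those labelled wild-type. The wild-type values lay inside the range of the other group, and the fold interval was 0.811 to 1.19 (adjusted p = 0.915, edgeR). *Icam1* (chr9:21015985-21028817, plus strand) encodes the inducible ligand and stood at 30.4, 16.2 and 19.1 against 21.0, 18.0 and 15.2. Only BCL6-insufficient replicate 1 stood above the rest. The log2 fold change was 0.29 ± 0.22 (SE, fold interval 0.887 to 1.68, adjusted p = 0.412, edgeR), and -0.03 without that mouse.

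That same mouse had the most *Lyz2*, a lysozyme gene of macrophages and granulocytes, at 16.5 normalized CPM beside 3.67 and 3.19 in its group and 0.0916, 2.04 and 1.58 in the mice labelled wild-type. *Lyz2* was the 1 of 5 tested myeloid markers that was called (log2 fold change 2.64, adjusted p = 0.00531, edgeR). Some other myeloid genes peaked in BCL6-insufficient replicate 2, with *S100a8* at 14.0 normalized CPM there and 0 in every other mouse. *Tyrobp* was at 4.46 there beside 0.582 in replicate 1. *Cst3* peaked in BCL6-insufficient replicate 3 (96.2), and *Fcgr3* (1.65) and *Cd68* (3.15) peaked in wild-type replicate 3. The summed level of the 14 myeloid markers in the table was 108.8 to 134.1 normalized CPM in the mice labelled BCL6-insufficient and 86.0 to 91.8 in those labelled wild-type, *Cd14* being at 0 in all libraries. Most of it was *Cst3*, without which it was 28.8, 45.2 and 16.0 against 7.97, 13.1 and 12.6. For 20 B cell markers, of which 11 were tested and none called, it was 525.1 to 761.5 against 618.0 to 893.1. Most of that was *Ighm*, without which the B cell sum was 26.6, 161.1 and 46.9 against 30.0, 19.8 and 128.2, highest in BCL6-insufficient replicate 2 and wild-type replicate 3. For the 9 of 21 endothelial and stromal markers in the table the sum was 1.34 to 3.86 against 1.69 to 3.38. Myeloid and B cells carry *Itgb2*, *Icam1* and *Cd44* as well, and the part of such cells in these values was not tested. In addition, 20.16% of the exon bases of *Icam1* are shared with the antisense gene *Gm47079*, and reads from the pair cannot be told apart if strand was not used in counting.

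*Cd44* (chr2:102811141-102901665, minus strand) encodes the receptor for hyaluronan that rises on activated and memory T cells and supports rolling and motility. It showed the lowest adjusted p of the 10 genes. Its values were 62.3, 70.8 and 49.8 normalized CPM in the mice labelled BCL6-insufficient and 104.8, 75.3 and 82.4 in those labelled wild-type. The groups did not overlap, though BCL6-insufficient replicate 2 and wild-type replicate 2 were neighbours. The means were 61.0 ± 10.6 and 87.5 ± 15.4 (SD, n = 3 each), a log2 fold change of -0.52 ± 0.14 (SE, 95% interval -0.81 to -0.23), or 0.698 of the wild-type level, with an adjusted p of 0.0126 in edgeR.

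Technical repeats of a mouse differed more for *Cd44* than for *Itgb2*, by up to 1.53-fold. Libraries labelled BCL6-insufficient ranged from 46.7 to 74.5 normalized CPM and those labelled wild-type from 63.3 to 116.8, so single libraries overlapped. The log2 fold change was -0.28 (adjusted p = 0.371, edgeR) in repeat 1 and -0.71 (adjusted p = 0.00464) in repeat 2. The call was lost without wild-type replicate 1 (-0.38) or without BCL6-insufficient replicate 3 (-0.40). In bulk RNA of sorted cells, fewer cells with the transcript and less transcript per cell cannot be told apart. The genes whose log2 CPM followed *Cd44* most closely over the 12 libraries were *Tcf12* (Pearson r = 0.912), *Tapbpl* (0.903) and *Pmf1* (0.901); libraries share mice, depth and group, and the values are a description.

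The bases before the start sites of *Cd44*, the called gene with a promoter in the RefSeq table, and of *Icam1* are shown because BCL6 is a DNA-binding repressor whose site overlaps that of STAT factors. The table (GRCm38.p6) held 6 of the 10 genes, namely *Itga4*, *Itgb1*, *Itgb7*, *Itgav*, *Icam1* and *Cd44*, and the 250 bases upstream of each were searched on both strands. Each is printed 5′ to 3′ on the strand of its gene, *Cd44* from chr2:102901666-102901915 (minus) and *Icam1* from chr9:21015690-21015939 (plus), and capitals mark a match to a searched pattern.
Cd44: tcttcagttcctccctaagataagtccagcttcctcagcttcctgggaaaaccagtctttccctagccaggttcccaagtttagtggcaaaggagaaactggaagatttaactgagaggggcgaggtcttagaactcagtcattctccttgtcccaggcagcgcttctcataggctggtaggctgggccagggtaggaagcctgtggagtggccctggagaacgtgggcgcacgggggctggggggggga
Icam1: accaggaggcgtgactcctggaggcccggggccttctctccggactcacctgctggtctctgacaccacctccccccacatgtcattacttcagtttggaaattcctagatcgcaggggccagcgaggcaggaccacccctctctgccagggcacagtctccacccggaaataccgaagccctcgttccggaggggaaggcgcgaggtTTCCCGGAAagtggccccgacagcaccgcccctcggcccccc
The BCL6 core TTCCTNGAA was found upstream of 0 of the 6 genes and of 1.31% of 32851 promoters of the same length. The looser STAT-type pattern TTCNNNGAA, which includes every BCL6 match as written, was in 7.02% of promoters and, among the 6, upstream of *Icam1* alone, as TTCCCGGAA beginning 42 bases before the start. A match of letters is not a bound site, and no match says only that these letters are not in this window.

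Genes that open integrins or tie them to actin were examined next. Of 46 such genes 41 were tested, of which edgeR called 2 as higher and 10 as lower in mice with the BCL6-insufficient label. That is 24.4% called lower and 4.88% called higher, beside 8.82% and 9.17% of all genes tested, with a median log2 fold change of -0.115 beside 0.011. Mice of the groups did not overlap for 17 of the 41, beside 34.4% of all genes tested. An unadjusted p under 0.05 in edgeR was reached by 16, of which 12 were lower, beside 31.0% and 15.2%. No test of the list was made, and 29 of its genes were not called. In technical repeat 1 alone 3 were lower, beside 4.54% of all genes, and in repeat 2 alone 5, beside 6.11%. With trends in GC content and length removed 3 were higher and 7 lower, beside 8.31% and 7.47% of all genes. Some of the 10 lower calls named below were thus lost in each of these fits, and which ones is not given here.

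Among those that fell was *Fermt3*, which encodes kindlin-3, the hematopoietic kindlin that binds the beta tail. It stood at 260.5, 270.5 and 209.0 normalized CPM in the mice labelled BCL6-insufficient and 315.9, 335.9 and 336.2 in those labelled wild-type, groups that did not overlap (log2 fold change -0.42 ± 0.10 SE, adjusted p = 0.006). *Tln1*, the talin gene whose product binds the same tails, was at 533.1 ± 40.9 and 502.8 ± 29.4 (SD, n = 3 each) and did not pass (0.08, adjusted p = 0.575, edgeR). The 2 RAP1 genes moved apart. *Rap1a* stood at 136.6, 132.4 and 134.6 against 190.0, 166.4 and 194.6 normalized CPM (-0.45 ± 0.10, adjusted p = 0.00282), and *Rap1b* at 205.9, 196.2 and 209.8 against 169.0, 153.8 and 165.9 (0.32 ± 0.10, adjusted p = 0.0204). For each of the pair the mice of the groups did not overlap.

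*Parvg*, which encodes gamma-parvin of the complex of integrin-linked kinase, fell the most clearly by p, from 125.4 ± 11.4 normalized CPM in the mice labelled wild-type to 73.8 ± 13.1 in the others (SD, n = 3 each; log2 fold change -0.76, adjusted p = 0.000211, edgeR). *Cyth1*, whose product cytohesin-1 binds the beta-2 tail, fell by 0.55 on the log2 scale (adjusted p = 0.00203, edgeR), and *Actn4*, an alpha-actinin that cross-links actin at integrins, fell by 0.44 (adjusted p = 0.00175). *Flna*, which encodes filamin A, an actin cross-linker that competes with talin for beta tails, was the most strongly raised, at 679.6, 672.3 and 633.7 against 399.1, 408.4 and 343.8 normalized CPM (0.79 ± 0.0917 SE, adjusted p = 3.94e-06). The remaining 5 that fell, named after their values were seen, were *Zyx* (-0.44), *Skap1* (-0.31), *Dok1* (-1.22), *Sipa1* (-0.33) and *Sipa1l1* (-0.43). They include both kinds of role, since SKAP1 promotes LFA-1 activation while DOK1 competes with talin and SIPA1 switches RAP1 off. *Dok1* was low, at 7.79, 1.57 and 4.42 against 9.52, 9.33 and 13.7 normalized CPM, and its fold had an SE of 0.38.

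**Figure D5:**
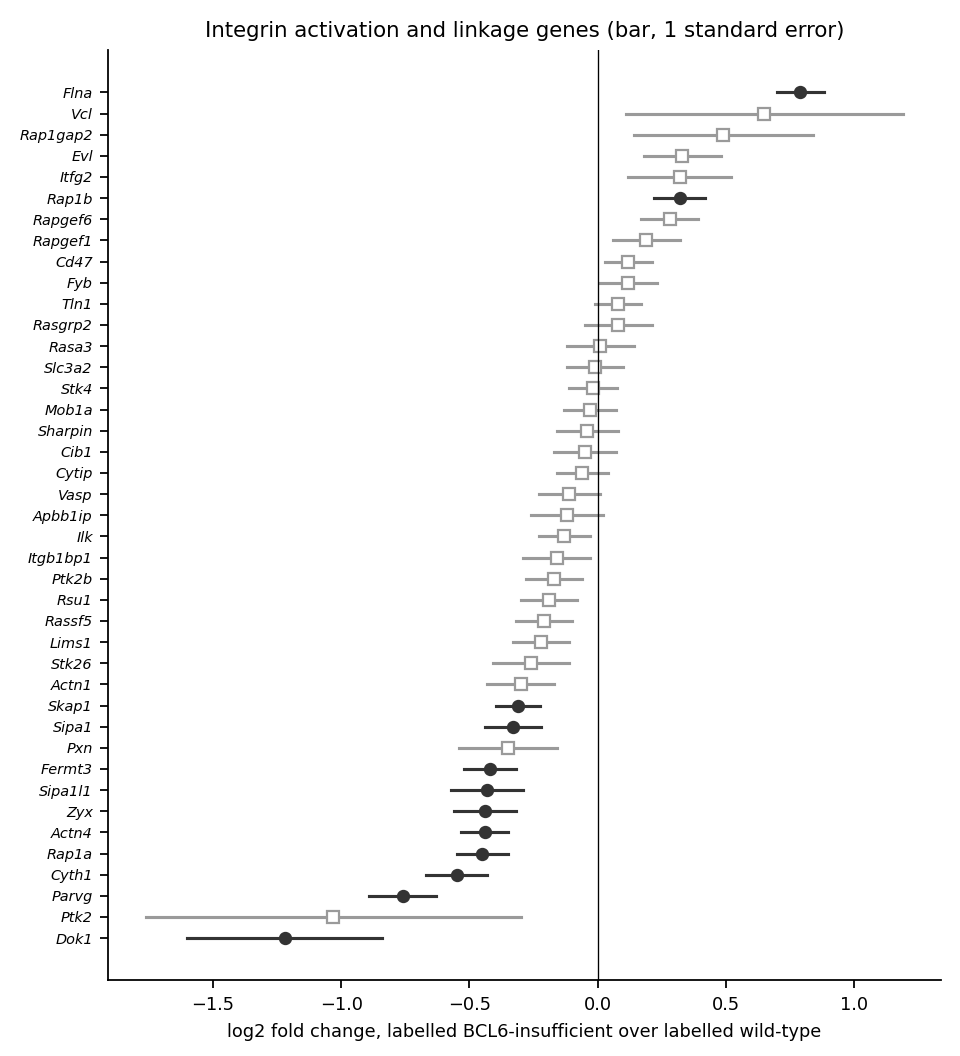
Log2 fold change (x axis, mice labelled BCL6-insufficient over labelled wild-type) with 1 standard error for the 41 tested genes of integrin activation and linkage. Filled circles are the 12 genes past an adjusted p of 0.05, with *Flna* (0.79) and *Rap1b* (0.32) above 0 and 10 below, down to the low-count *Dok1* at -1.22 ± 0.38 (SE).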

How the data were processed

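SMART-Seq2 messenger RNA libraries were made from 3 recipient mice per genotype, with 2 technical repeats of about 200 cells each. Reads were aligned to GRCm38 by the authors with HISAT2 2.2.1 and counted with HTSeq, and the deposited counts are raw, 1 value per gene and library; the annotation release and strand setting are not given in the sources used here. A deposited TPM table covers 24530 genes. In 9211 genes that had 10 counts or more in all libraries, the length implied by the TPM followed the gene span (Spearman rho over genes 0.955) more than the exon length (0.616), so levels between genes were compared as CPM per kb of merged exons (GENCODE M21, basic set) and TPM served only as an alternative. One transcript, *CT010467.1*, took 12.0% to 20.9% of counts per library.

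Repeats were summed per mouse, and the groups of 3 were tested in R 4.3.3 using edgeR 4.0.16 (filterByExpr with a minimum count of 10, TMM, quasi-likelihood test, Benjamini-Hochberg adjustment over 12719 genes). Standard errors came from the log2 fold change and F statistic. Ratios of chains were compared by exact permutation. Alternatives used DESeq2 1.42.0, limma 3.58.1 and offsets from mgcv 1.9.3, the last with values for 99.2% of genes. Of the table's symbols 23801 were found by name in the annotation, 236 by another symbol, and 524 were not found. Promoters came from RefSeq. On simulated counts of 12719 genes with 200 changed 2-fold, for this comparison, edgeR recovered 70% of them and 7.28% of its calls were unchanged genes; with a simulated length trend left uncorrected 95.5% were, and 10.7% once corrected, so the fit with GC and length trends removed is given beside *Itgb2*. Reads carry no molecular identifiers, so depth limits cover counting error only.

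The adhesion genes and all gene lists were chosen with earlier results of these data known. Named were all 10 genes, *Bcl6*, up to 5 called genes in each direction per list by smallest p, the 3 genes closest to the member of smallest p among those called in each direction, and markers of other cells; outside this rule, *Tln1* and the remaining 5 lower genes of the activation list were named after their values were seen. Replicate numbers are shared between the groups, but the deviations of same-numbered mice did not correlate over 0.1 in any of the 3 pairs, so mice were not paired.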

Additional observations from a re-analysis of the deposited data

Results flagged for a closer look

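Among 20 groups of 6 libraries, 1 for each gene and label, a single library lay far from the others, and chance alone would give about 1. This was *Itgb1* in repeat 1 of BCL6-insufficient replicate 3, at 220.1 normalized CPM, while the other 5 libraries of the group lay between 286.7 and 313.2. It was also the shallowest library of the series, with 3343375 counts. The mouse's summed value of 266.2 normalized CPM was the lowest of its group for *Itgb1* but lay within 1 unit of wild-type replicate 1 at 266.8.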

How the results depend on the processing

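Over 20 alternatives no gene changed sign while called. *Cd44* was called in 14 (log2 fold change -0.71 to -0.28) and *Itgb2* in 9 (-0.43 to -0.20), each below 0 in all 20; *Itgb3* was called in 8 and lay between 0.37 and 1.41, and the other 7 genes were called in none, *Itga4* having 19 alternatives because it was too low for a filter of 10 counts in every library. The number of adhesion genes called higher rose from 0 to 1 (*Itgb3*) with upper-quartile scaling, with a filter of at least 10 counts in every library, with at least 1 count in any mouse, in repeat 1 only, with limma voom on 12 libraries, with the replicate block (log2 fold change 1.05, adjusted p = 0.0107), and with GC and length trends removed with the replicate block; it was 0 to 1 when each mouse was left out. The number called lower fell from 2 to 1 with upper-quartile scaling, in repeat 2 only and with GC and length trends removed, without or with the replicate block, to 0 in repeat 1 only and in the 3 TPM fits, and was 0 to 2 when each mouse was left out. The cause was not tested. All genes called numbered 1059 in repeat 1 only, 1446 in repeat 2 only, 1305 on log2(TPM + 1), 1260 on log2(TPM + 0.1), 221 on log2(TPM + 1) over all genes, and 1424 to 1972 when each mouse was left out, beside 2288. The share of calls that were higher, 51.0%, was 29.9%, 29.7% and 35.3% in the TPM fits, and log2(TPM + 0.1) moved the median of all genes to -0.111; relative to that median *Itgb2* (-0.43) and *Cd44* (-0.61) were still below and *Itgb3* (0.84) above.

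The replicate block took all calls to 2579 and, apart from *Itgb3*, changed no call among the 10 genes; same-numbered mice had correlations of 0.0852, -0.0283 and 0.0247, and 1 of 3 numbers correlated best with itself, so the mice share only a number. In repeat 1 only, 0 other integrin chains were higher, 1 activation and linkage gene was higher and 3 lower, and 0 other adhesion molecules were lower; in repeat 2 only, 1 activation and linkage gene was higher and 5 lower. The log2 difference in the *Itgal*/*Itgb2* ratio was 0.24 in repeat 1 and 0.38 in repeat 2. In repeats 1 and 2 it was 1.03 and -0.36 for *Itga4*/*Itgb1*, 0.64 and -0.23 for *Itga4*/*Itgb7*, -1.77 and -0.06 for *Itgav*/*Itgb3*, and -0.39 and 0.13 for *Itgb1*/*Itgb7*. Depth limits *Itga4*, *Itgav* and *Itgb3*, which had as few as 7, 26 and 18 counts in a library.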

Other observations

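Adhesion molecules outside the integrin families were called at shares not far from the background. Of 41 listed, 26 were tested, of which 3 rose and 4 fell in mice with the BCL6-insufficient label, or 11.5% and 15.4% beside 9.17% and 8.82% of all genes tested (median log2 fold change -0.0295). Mice of the groups did not overlap for 8 of the 26, beside 34.4% of all genes tested, and no test of the list was made. *Thy1*, a GPI-anchored glycoprotein of T cells, rose to 740.9, 603.7 and 597.2 normalized CPM from 380.0, 311.7 and 282.3 (log2 fold change 1.0, adjusted p = 2.24e-06, edgeR). *Spn*, the sialylated mucin CD43 that can hinder close contact between cells, rose to 257.8, 192.5 and 226.5 from 134.0, 130.0 and 108.2 (0.86, adjusted p = 2.32e-05). *Lgals1*, a galectin that cross-links surface glycans, rose by 0.58 on the log2 scale (adjusted p = 8.13e-05). For each of these the mice of the groups did not overlap.

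*Tigit* and *Cd96*, whose products share nectin-family ligands, were both lower. *Tigit* stood at 123.0, 126.4 and 123.0 normalized CPM in the mice labelled BCL6-insufficient and 176.8, 179.9 and 188.0 in those labelled wild-type (-0.55, adjusted p = 0.000381, edgeR). *Cd96* stood at 16.4, 23.3 and 15.3 against 36.7, 28.3 and 30.0 (-0.79, adjusted p = 0.00584). The tetraspanins *Cd82* (-0.48, adjusted p = 0.00228) and *Cd53* (-0.28, adjusted p = 0.0317), which organize integrins and other receptors in the membrane, were also lower. In technical repeat 1 alone 0 of the 4 genes kept the call, at -0.40 for *Tigit*, -0.37 for *Cd96*, -0.42 for *Cd82* and -0.07 for *Cd53*, beside 4.54% of all genes called lower there. In repeat 2 alone all 4 were called (-0.71, -1.15, -0.54 and -0.46 in the same order), and 5 genes of the list were lower, beside 6.11% of all genes.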
